A study of Homo sapiens and Mus musculus with 74 samples.

Results

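The collagen chains of mouse kidney and brain were examined in animals with and without Rpl41, the gene of the smallest ribosomal protein. Chains were taken by their gene symbols (Col, a number, a, a number) among protein-coding genes of GENCODE M21. This gave 45 of the 21823 protein-coding genes in the count table, each represented by the transcript with the longest protein. One of them, Col4a3bp, encodes a ceramide transfer protein and is described apart, which leaves 44 collagen chains.

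Kidneys and brains came from 10-week-old male mice, either Rpl41 KO (Rpl41 −/−, C57BL/6J) or wild-type (WT). Whether these WT mice were littermates of the Rpl41 KO mice is not stated. The KO line was made in zygotes with CRISPR-Cas9, which removed the whole Rpl41 coding sequence from every tissue. Each tissue was assayed by Ribo-seq, which sequences the RNA fragments protected by single ribosomes, and by poly(A) RNA-seq. Kidney was also assayed by disome-seq, which sequences the longer fragments protected by a pair of collided or closely stacked ribosomes. Each group held 3 libraries, and 30 libraries were used in all.

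Collagens are the main structural proteins of the extracellular matrix. Their chains carry long Gly-X-Y repeats in which proline often fills the X and Y places, and chains wind around each other into a stiff helix before export from the endoplasmic reticulum. Fibrillar chains form the fibres of connective tissue, type IV chains form the sheet of basement membranes, type VI chains form beaded filaments, and fibril-associated chains and multiplexins decorate fibres and basement membranes. In kidney the Col4a3, Col4a4 and Col4a5 chains build the filtration barrier of the glomerulus together with podocytes.

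The 44 chains comprised 11 fibrillar, 9 fibril-associated, 6 type IV, 6 type VI, 4 transmembrane, 3 other network-forming, 2 multiplexin and 3 other chains. Their proteins were long, from 440 residues in Col26a1 to 3284 in Col6a3, with a median of 1538.5 against 392 over all coding genes. Proline made up from 4.50% of residues in Col6a6 to 23.5% in Col4a5, with a median of 16.2% against 5.27% over all coding genes. Glycine reached 31.2% in Col9a3 and had a median of 24.2% against 6.03%. Gly-X-Y repeats covered from 7.63% of Col12a1 to 84.2% of Col9a2. The chains wrote proline mostly as CCT (40.8% of proline codons) and CCA (33.2%), followed by CCC (19.8%) and CCG (6.27%).

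To show how proline is written into these chains, the 20 codons with the most proline are given here for 6 of the 7 chains whose kidney Ribo-seq signal differed between Rpl41 KO and WT and for 3 abundant chains that the later comparisons turn on. The coding letters are those of the GENCODE M21 transcripts on GRCm38, written 5′ to 3′, and capitals mark the proline codons.
Col1a1: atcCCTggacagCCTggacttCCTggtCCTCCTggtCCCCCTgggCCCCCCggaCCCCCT
Col3a1: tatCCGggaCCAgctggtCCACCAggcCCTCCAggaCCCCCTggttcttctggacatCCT
Col27a1: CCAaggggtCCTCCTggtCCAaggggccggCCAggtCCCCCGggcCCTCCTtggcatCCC
Col4a3: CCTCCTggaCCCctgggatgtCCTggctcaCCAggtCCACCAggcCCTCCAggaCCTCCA
Col6a1: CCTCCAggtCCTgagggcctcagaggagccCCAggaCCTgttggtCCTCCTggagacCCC
Col6a3: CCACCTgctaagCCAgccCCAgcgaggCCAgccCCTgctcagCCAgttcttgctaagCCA
Col12a1: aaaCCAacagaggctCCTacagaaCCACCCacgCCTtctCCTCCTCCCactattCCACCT
Col14a1: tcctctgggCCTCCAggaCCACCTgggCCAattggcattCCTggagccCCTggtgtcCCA
Col16a1: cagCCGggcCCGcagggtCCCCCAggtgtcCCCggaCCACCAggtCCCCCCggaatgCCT
These windows held 8 to 11 proline codons each. Positions given here are those of the whole genes, and codons are numbered in the transcript shown. The Col1a1 window was codons 124 to 143, with the gene at chr11:94936224-94953042 on the plus strand. For Col3a1 it was codons 171 to 190 at chr1:45311538-45349706, plus strand. For Col27a1 it was codons 1587 to 1606 at chr4:63214004-63334991, plus strand. The Col4a3 window was codons 416 to 435, with the gene at chr1:82586921-82722059 on the plus strand. For Col6a1 it was codons 482 to 501 at chr10:76708792-76726168, minus strand. For Col6a3 it was codons 2886 to 2905 at chr1:90765923-90843971, minus strand. The Col12a1 window was codons 2295 to 2314, with the gene at chr9:79598991-79718831 on the minus strand. For Col14a1 it was codons 1563 to 1582 at chr15:55307750-55520803, plus strand. For Col16a1 it was codons 896 to 915 at chr4:130047840-130099283, plus strand. All lay in coding exons. The windows of Col12a1 and Col6a3 held no glycine codon, and the others were Gly-X-Y repeats over all or most of their length.

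Library depth in RNA-seq ranged from 44998381 to 55077048 counts for kidney and from 84433838 to 123745890 for brain. In the other assays it was 11036643 to 42452425 in kidney Ribo-seq, 9498663 to 35881929 in brain Ribo-seq and 1187636 to 3018963 in disome-seq. The chains received 319 to 1313 counts per disome library and 8037 to 51138 per kidney Ribo-seq library, so disome values carry the largest counting error. Rpl41 itself had 3695 to 7502 reads in WT kidney RNA-seq libraries and 3 to 8 in Rpl41 KO libraries, with 8981 to 12199 and 6 to 12 in brain, which matched the labels. Tissue labels also matched their markers: the summed level of 5 neuron markers was 0.285 to 0.467 CPM (read counts scaled to library size) in WT kidney RNA-seq and 6 kidney epithelial markers summed to 0.466 to 0.594 CPM in WT brain RNA-seq. Replicates 2 and 3 of the Rpl41 KO kidney RNA-seq stood apart, with 83287 and 86071 detected transcripts against 91222 to 93091 in the other kidney RNA-seq libraries and with 1.76% and 1.67% of their counts on ribosomal RNA of mitochondria, where the others had 0.436% to 0.962%. Named chain values that depend on them are also given without both, which leaves 1 Rpl41 KO library, assumed to vary like the remaining libraries of the fit. Whether RNA quality has a part in these values was not tested.

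In WT kidney the collagen signal was mainly that of basement membranes. Type IV chains took 53.3% ± 1.67 (SD, n = 3) of all collagen CPM in Ribo-seq, 54.4% ± 2.24 in RNA-seq and 62.4% ± 5.06 in disome-seq, while fibrillar chains took 19.1% ± 1.43 in Ribo-seq and 26.0% ± 1.92 in RNA-seq. Per kilobase of coding sequence, the highest Ribo-seq levels were 27.2 ± 7.82 CPM for Col4a1 and 18.7 ± 5.40 for Col4a2, the pair found in all basement membranes. The glomerular chains Col4a3 and Col4a4 followed at 16.0 ± 2.48 and 15.7 ± 2.48 CPM per kilobase, then Col18a1, the source of endostatin, at 13.3 ± 3.44 and Col1a2, a chain of type I fibres, at 12.6 ± 1.84. Neighbours in this order from Col4a2 to Col1a2 lay within each other's spread. The RNA-seq order also began with Col4a1, at 10.1 ± 2.00 CPM per kilobase of transcript, but placed Col27a1, a fibrillar chain best known from cartilage, among its first 6 at 5.36. In disome-seq Col4a3 led with 17.7 ± 5.29 CPM per kilobase of coding sequence and Col4a1 stood at 7.21.

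In WT brain the fibrillar chains led instead, with 46.8% ± 8.68 of collagen CPM in Ribo-seq and 29.0% ± 0.949 in RNA-seq. Col1a1 had the highest Ribo-seq level at 10.9 ± 5.07 CPM per kilobase of coding sequence, followed within its spread by Col1a2 at 9.67 ± 3.27. Col25a1, a transmembrane collagen of neurons, stood at 6.96 and Col9a3, a fibril-associated chain, at 4.73. The highest RNA-seq level was 4.21 ± 0.913 CPM per kilobase of transcript for Col6a1, one of the type VI chains. No chain stayed at or under 3 reads in every WT brain library of an assay, whereas 8 did in WT kidney RNA-seq, 3 in Ribo-seq and 17 in disome-seq.

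In kidney, loss of Rpl41 came with more ribosome-protected fragments (RPFs) on 6 collagen chains and fewer on 1. Col15a1, Col14a1, Col6a3, Col16a1, Col12a1 and Col6a1 rose in Rpl41 KO kidney Ribo-seq and Col27a1 fell, by edgeR's quasi-likelihood test at a Benjamini-Hochberg adjusted p of 0.05. These were 7 of the 31 chains tested, against 9.88% called over all 13361 coding genes tested (5.95% higher and 3.93% lower). Over the 31 chains the median log2 fold change was 0.29 against −0.02 for all coding genes, and 22 chains were positive. The libraries of the groups did not overlap in 9 chains with Rpl41 KO higher and 1 with Rpl41 KO lower, against 17.0% and 16.0% of coding genes. The other 13 chains had too few RPFs to be tested.

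Col15a1, a multiplexin that links basement membranes to the fibres beneath them, had Ribo-seq levels of 24.4, 23.5 and 15.9 CPM in the 3 WT libraries and 35.1, 48.6 and 43.6 in the 3 Rpl41 KO libraries. The groups did not overlap, and the log2 fold change was 1.00 (SE 0.16, adjusted p = 0.00691). Col15a1 was the one chain called in all 7 alternative settings and with any single library left out. Its RNA-seq levels were 10.4, 12.1 and 12.2 CPM in WT and 11.3, 11.9 and 11.8 in Rpl41 KO, a log2 fold change of 0.01 (SE 0.15).

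Col14a1, a fibril-associated chain that binds the surface of type I fibres, had 58.6, 44.2 and 29.3 CPM in WT and 75.7, 97.4 and 88.5 in Rpl41 KO Ribo-seq, a log2 fold change of 0.98 (SE 0.20, adjusted p = 0.014). Col16a1, another fibril-associated chain, had 4.39, 4.48 and 3.36 CPM against 6.19, 8.16 and 6.73, a log2 fold change of 0.80 (SE 0.15, adjusted p = 0.0129). Col12a1, a close relative of Col14a1, had 10.9, 10.5 and 6.43 CPM against 11.8, 16.1 and 15.2, a log2 fold change of 0.64 (SE 0.17, adjusted p = 0.0388). In all 3 fibril-associated chains every Rpl41 KO library exceeded every WT library. The fourth tested chain of that class, Col19a1, had a log2 fold change of −0.01.

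Of the type VI chains, which form the beaded filaments around cells, Col6a3 had 30.8, 23.4 and 14.5 CPM in WT Ribo-seq and 34.8, 50.7 and 44.7 in Rpl41 KO, a log2 fold change of 0.91 (SE 0.21, adjusted p = 0.0231). Col6a1 had 20.1, 16.6 and 12.6 CPM against 19.2, 29.5 and 27.4, and its groups overlapped (log2 fold change 0.63, SE 0.17, adjusted p = 0.0431), a call kept in 2 of 7 alternative settings. Their partner Col6a2 lay above the threshold at 0.53 (adjusted p = 0.0703). The remaining type VI chains, Col6a4, Col6a5 and Col6a6, had negative log2 fold changes of −0.13, −0.21 and −0.56, none called.

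Col27a1 went the other way. Its Ribo-seq levels were low, at 1.92, 2.07 and 1.83 CPM in WT and 0.982, 1.28 and 1.03 in Rpl41 KO, a log2 fold change of −0.78 (SE 0.21, adjusted p = 0.0432). Its RNA-seq levels were 33.9, 45.0 and 43.6 CPM in WT and 47.7, 126 and 96.5 in Rpl41 KO, a log2 difference of 1.14 (SE 0.32, adjusted p = 0.292), which was 0.23 without Rpl41 KO RNA-seq replicates 2 and 3. The Ribo-seq groups did not overlap, but the call was lost whenever any single library was left out.

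**Figure D1:**
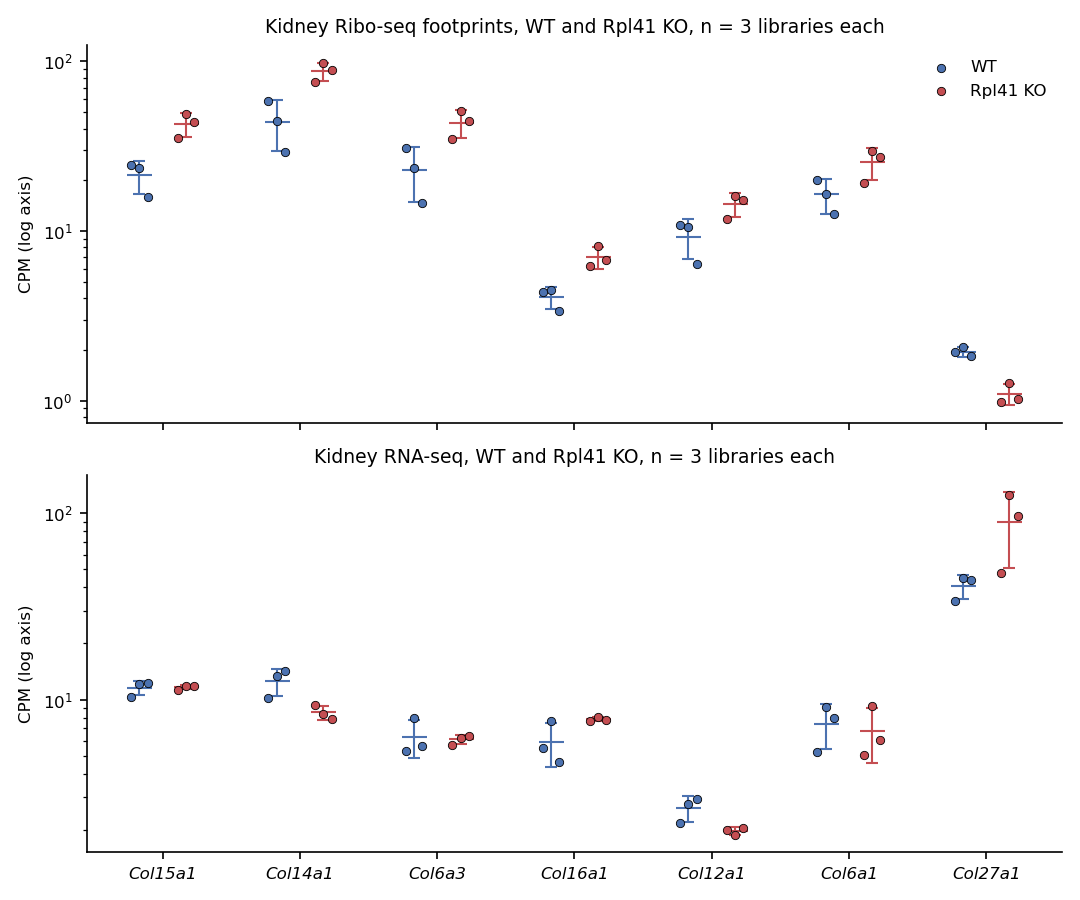
Levels of the 7 called chains in kidney, with Ribo-seq above and RNA-seq below, in CPM on a log axis; points are libraries (3 per group), bars are means and lines are SD. In Ribo-seq the Rpl41 KO points of Col15a1, from 35.1 to 48.6, all lie above the WT points, from 15.9 to 24.4, while its RNA-seq points coincide.

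The type IV chains, which carried most of the collagen signal, all had positive log2 fold changes in kidney Ribo-seq, apart from Col4a6 at just under 0 without TMM scaling, and none was called. Col4a1 had 150, 167 and 92.2 CPM in WT and 181, 208 and 195 in Rpl41 KO (log2 fold change 0.51, adjusted p = 0.0998), and Col4a2 had 103, 119 and 65.2 against 125, 149 and 135 (0.51, adjusted p = 0.0966). In both chains the groups did not overlap, and WT replicate 3 was the lowest library. Of the glomerular chains, Col4a5 stood at 0.33 (adjusted p = 0.0997), Col4a3 at 0.38 and Col4a4 at 0.17, and Col4a6 stood at 0.06. Col18a1, the second multiplexin, had 0.46 (adjusted p = 0.0954).

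Type I and III fibre chains also had positive values, with log2 fold changes of 0.32 for Col1a1, 0.34 for Col1a2 and 0.37 for Col3a1, none called. Col7a1, the chain of anchoring fibrils, had 1.42, 1.27 and 0.511 CPM in WT and 0.687, 0.603 and 0.694 in Rpl41 KO, a log2 fold change of −0.78 (adjusted p = 0.155). The summed Ribo-seq level of all 44 chains was 889, 878 and 587 CPM in WT and 1018, 1186 and 1064 CPM in Rpl41 KO, a ratio of means of 1.39. Those groups did not overlap, and an exact two-sided permutation test gave p = 0.1, the smallest value that 3 against 3 libraries allow.

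The further main chains had the following kidney Ribo-seq levels, WT first. Col4a3 had 87.3, 87.0 and 65.7 CPM against 129.9, 95.8 and 87.2. Col4a4 had 90.2, 82.3 and 65.7 CPM against 100.2, 88.7 and 80.6. Col4a5 had 28.5, 26.1 and 21.7 CPM against 30.4, 33.8 and 31.7. Of these 3 glomerular chains, Col4a5 had groups that did not overlap and the others did overlap. Col1a1 had 43.9, 38.6 and 30.5 CPM against 36.1, 57.3 and 46.6. Col1a2 had 58.7, 52.8 and 43.7 CPM against 53.1, 78.4 and 64.2. Col3a1 had 43.3, 36.0 and 27.4 CPM against 34.1, 58.1 and 44.8. In these 3 fibrillar chains Rpl41 KO replicate 1 lay within the WT range and replicates 2 and 3 lay above it. Col6a2 had 13.7, 10.8 and 8.11 CPM against 12.7, 17.8 and 16.6 with overlap and Col18a1 had 74.0, 87.3 and 51.1 CPM against 94.4, 102 and 96.4 without.

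**Figure D2:**
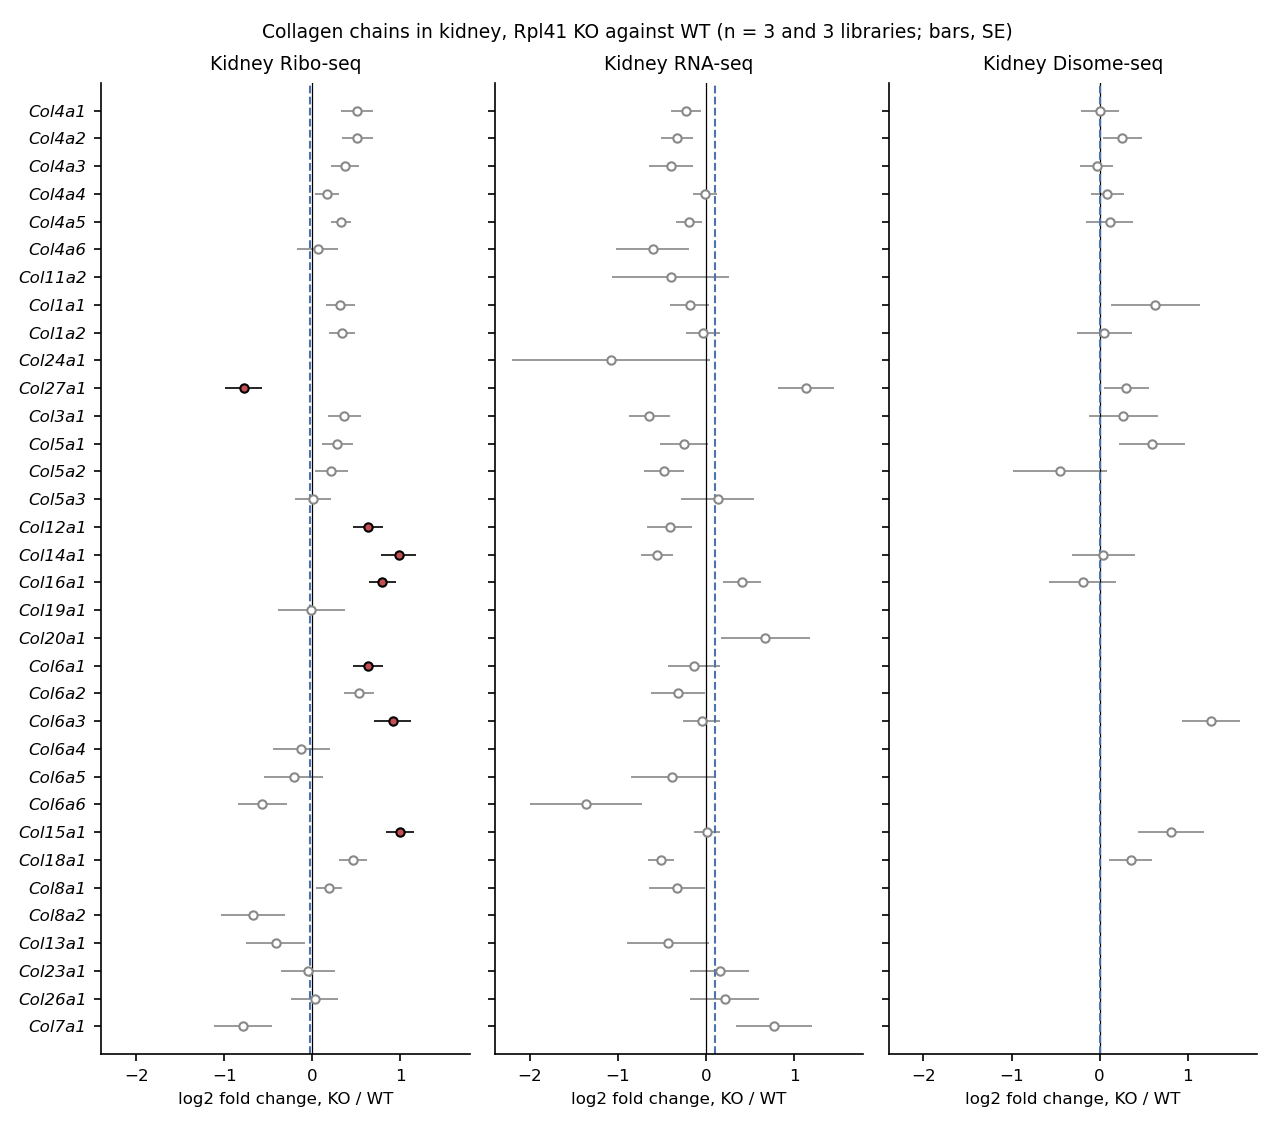
Log2 fold change of Rpl41 KO against WT (± SE) for each tested chain in kidney Ribo-seq, RNA-seq and disome-seq; filled points passed the adjusted threshold of 0.05 and the dashed line is the median of all coding genes. The 31 chains of Ribo-seq have a median of 0.29 with 7 filled points, and neither RNA-seq, with a median of −0.25, nor disome-seq, with 0.18, has any.

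The Ribo-seq calls depended on the processing and on library choice. Of the 7 alternative settings, all called Col14a1, Col15a1 and Col16a1, 6 called Col6a3, 4 called Col12a1, 4 called Col27a1 and 2 called Col6a1. In the 6 chains that rose, WT replicate 3 was the lowest WT library and Rpl41 KO replicate 1 the lowest KO library. Without Rpl41 KO replicate 2 or without replicate 3, the deepest libraries, 1 chain (Col15a1) was called, while coding genes called fell from 1320 to 110 and 53. Without WT replicate 3, Col12a1, Col14a1, Col15a1, Col16a1 and Col6a3 were still called higher and Col6a1 was not.

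Markers of several kidney cell types moved with the chains in Ribo-seq. The summed level of 5 fibroblast markers was 109 to 200 CPM in WT and 157 to 211 in Rpl41 KO, with all 5 positive and Pdgfra called higher, and that of 5 endothelial markers was 102 to 132 and 143 to 153, with Pecam1 called higher. Epithelial markers summed to 3788 to 4441 and 5237 to 6074 CPM (5 of 6 positive, with 2 called higher, Lrp2 and Slc12a1). Macrophage markers summed to 20.5 to 28.9 and 28.6 to 32.5 CPM (4 of 4 positive, with 1 called higher, Csf1r). Pericyte and smooth muscle markers were mixed, at 71.1 to 112 and 91.4 to 124 CPM. Of these, 2 of 5 were positive, with a median log2 fold change of −0.09, and 1 was called higher, Pdgfrb. Podocyte markers summed to 60.7 to 106 and 72.6 to 75.9 CPM, with 0 of 5 positive. None of these lists' defining markers was at 0, and their part in the collagen values was not tested. In such bulk samples a change in the number of cells of a type and a change in RNA or RPFs per cell cannot be told apart.

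In kidney RNA-seq no chain was called. Of 31 chains tested by edgeR's quasi-likelihood test, 0 passed after Benjamini-Hochberg adjustment, against 0.00724% of coding genes, and DESeq2 called 0 chains. Before adjustment, 4 chains (Col3a1, Col14a1, Col18a1 and Col27a1) and 1960 of 13810 coding genes had an edgeR p under 0.05. The median log2 fold change was −0.25 against 0.10 over coding genes, with 8 chains positive, and −0.26 against 0.02 without Rpl41 KO replicates 2 and 3. The groups did not overlap in 2 chains with Rpl41 KO higher, Col16a1 and Col27a1, and 5 with Rpl41 KO lower, against 14.2% and 6.68% of coding genes.

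Among those 5, Col14a1 had RNA-seq levels of 10.2, 13.3 and 14.2 CPM in WT and 9.36, 8.34 and 7.88 in Rpl41 KO, a log2 difference of −0.56 (−0.42 without Rpl41 KO replicates 2 and 3), opposite in sign to its Ribo-seq value. Col18a1 had 24.4, 28.2 and 26.5 CPM against 20.2, 16.0 and 19.3, a log2 difference of −0.51 (−0.38 without them). The others were Col12a1, Col4a5 and Col13a1. All 6 type IV chains and all 5 tested type VI chains had negative values. Col3a1 had a log2 difference of −0.64, which was −0.25 without Rpl41 KO replicates 2 and 3, and Col4a3 had −0.40, which became 0.10, as Col4a4 moved from −0.01 to 0.08. Col6a1 moved from −0.13 to −0.57 and Col6a2 from −0.32 to −0.77. Without Rpl41 KO replicate 1 instead, 4 chains were called, Col27a1 higher and Col18a1, Col3a1 and Col4a3 lower. That fit has only the Rpl41 KO replicates that stood apart, 2 and 3. Its share of coding genes called is not given here, so the 4 calls cannot be set against it.

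Of the main chains in kidney RNA-seq, Col18a1 and Col4a5 had groups that did not overlap and the others overlapped. Col1a1 had 10.2, 17.7 and 17.3 CPM against 12.4, 13.1 and 14.2. Col1a2 had 25.0, 36.4 and 33.9 CPM against 25.5, 36.3 and 31.3. Col3a1 had 14.7, 21.9 and 18.5 CPM against 15.3, 9.76 and 10.1. Col1a1 and Col1a2, which assemble into type I collagen, overlapped throughout. Col4a1 had 56.0, 81.6 and 62.9 CPM against 56.4, 54.7 and 60.4. Col4a2 had 37.0, 57.9 and 47.0 CPM against 39.3, 37.4 and 36.3. Col4a4 had 75.5, 74.5 and 66.5 CPM against 76.1, 62.6 and 76.2. In Col4a1 and Col4a2 WT replicate 2 was the highest library. Col4a3 had 53.5, 49.5 and 59.5 CPM against 57.9, 27.4 and 38.1, with Rpl41 KO replicates 2 and 3 below all other libraries, and Col4a5 had 11.8, 14.3 and 11.8 CPM against 10.9, 11.0 and 11.3. Col6a1 had 5.21, 9.15 and 7.91 CPM against 5.01, 9.26 and 6.08. Col6a2 had 3.17, 4.70 and 5.85 CPM against 2.66, 4.70 and 3.65. Col6a3 had 5.29, 7.99 and 5.63 CPM against 5.72, 6.24 and 6.35, each with overlap. Among the chains without overlap, Col16a1 had 5.47, 7.65 and 4.61 CPM against 7.69, 8.10 and 7.76. Col12a1 had 2.16, 2.76 and 2.94 CPM against 1.99, 1.87 and 2.04. Col13a1, a transmembrane chain, had 0.409, 0.552 and 0.489 CPM against 0.355, 0.402 and 0.316.

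Podocyte markers in kidney RNA-seq summed to 115 to 150 CPM in WT and 83.4 to 92.9 in Rpl41 KO, pericyte and smooth muscle markers to 78.7 to 110 and 62.4 to 69.0, and endothelial markers to 70.3 to 89.97 and 55.4 to 63.5. In each of these 3 lists 0 of 5 genes were positive and none was called, and their part in the collagen values was not tested. The fibroblast list had 2 of 5 genes positive, the epithelial list 3 of 6 and the macrophage list 3 of 4, with none called.

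Translation efficiency (TE), the change of Ribo-seq relative to that of RNA-seq, was fitted on the same libraries and is not independent of the values above. By edgeR's quasi-likelihood test 0 of 37 chains and 0.0% of the 15347 coding genes were called after adjustment. Unadjusted p-values were under 0.05 for 13 chains (11 higher, 2 lower) and for 2705 coding genes. DESeq2 called 4 chains, Col14a1, Col15a1 and Col18a1 higher and Col27a1 lower. The share of coding genes that DESeq2 called is not given here, so the 4 cannot be set against it. The median log2 TE change was 0.49 against −0.13 over coding genes, with 27 chains positive, and 0.46 against −0.08 without Rpl41 KO RNA-seq replicates 2 and 3.

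The TE values were 1.53 for Col14a1 (SE 0.31, adjusted p = 0.111), 1.04 for Col12a1 (adjusted p = 0.137), 0.98 for Col15a1 (adjusted p = 0.12) and 0.96 for Col18a1 (adjusted p = 0.123). Col27a1 had −1.93 (SE 0.42, adjusted p = 0.116), which was −1.05 without Rpl41 KO RNA-seq replicates 2 and 3. Without them Col14a1 had 1.37, Col12a1 0.99, Col15a1 0.99 and Col18a1 0.81. All 6 type IV chains had positive TE values, with a class median of 0.69, though Col4a3 moved from 0.76 to 0.25 and Col4a4 from 0.18 to 0.07 without those replicates. Without Rpl41 KO RNA-seq replicate 1, which leaves the replicates that stood apart, edgeR called 8 chains. The share of coding genes called in that fit is not given here.

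Disome-seq in kidney covered 16 chains, of which 0 were called by edgeR's quasi-likelihood test, against 0.181% of coding genes, and 0 by DESeq2. Before adjustment, 2 chains and 865 of 7718 coding genes had an edgeR p under 0.05. Col6a3 had disome levels of 4.12, 4.35 and 8.34 CPM in WT and 10.7, 15.6 and 8.93 in Rpl41 KO, a log2 fold change of 1.26 (SE 0.33, adjusted p = 0.136), and it passed the threshold without WT replicate 3. Col15a1 had 5.07, 5.90 and 2.50 CPM against 6.43, 13.5 and 5.36, a log2 fold change of 0.81 (adjusted p = 0.438). Of the other chains that rose in Ribo-seq, Col14a1 had a disome log2 fold change of 0.04 and Col16a1 one of −0.19, and Col12a1 and Col6a1 had too few disomes to be tested.

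Over the 16 chains 13 were positive, with a median of 0.18 against 0.01 over coding genes. The groups did not overlap in 2 chains with Rpl41 KO higher, Col6a3 and Col5a1, and 0 with Rpl41 KO lower, against 8.93% and 8.06% of coding genes. The 5 type IV chains tested had log2 fold changes from −0.03 for Col4a3 to 0.26 for Col4a2, none called. Nphs1, the nephrin gene, was called lower among the podocyte markers in disome-seq, and Slc12a1 was called higher among the epithelial ones.

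The groups of the remaining main chains overlapped in disome-seq. Col4a1 had 36.1, 49.7 and 22.5 CPM against 39.9, 39.0 and 33.9. Col4a2 had 22.2, 35.7 and 23.4 CPM against 25.3, 37.5 and 38.4. Col4a3 had 96.3, 111 and 59.2 CPM against 94.7, 80.6 and 91.1. Col4a4 had 54.2, 66.8 and 36.7 CPM against 59.2, 54.1 and 59.8. Col4a5 had 9.82, 10.6 and 8.34 CPM against 9.43, 12.0 and 10.7. Col18a1 had 25.0, 30.4 and 12.5 CPM against 24.0, 38.5 and 31.3. In all 6 the ranges of the groups overlapped. Col1a1 had 4.75, 1.86 and 2.50 CPM against 2.14, 6.24 and 8.04. Col1a2 had 7.60, 9.94 and 10.0 CPM against 6.00, 13.5 and 8.93. Col3a1 had 5.38, 4.97 and 3.34 CPM against 3.43, 6.76 and 8.93. Col5a1, whose groups did not overlap, had 3.80, 5.59 and 2.50 CPM against 6.00, 6.24 and 8.04, a log2 fold change of 0.59.

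Relative to Ribo-seq, the disome signal of 0 of 25 chains differed between Rpl41 KO and WT by edgeR's quasi-likelihood test (0 by DESeq2, and 0.0% of coding genes called by edgeR). The unadjusted edgeR p was under 0.05 for 4 chains and for 721 of 12157 coding genes. Col27a1 had 1.12 (SE 0.35, adjusted p = 0.772), and was called when same-numbered libraries of both assays were paired. Col12a1 and Col16a1 had values of −1.32 and −0.97. These values use the same libraries as the Ribo-seq and disome comparisons.

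In WT kidney, most chains had fewer disomes than their RPFs would give at the rate of other genes. Of 25 chains tested for disome-seq against Ribo-seq, 16 were lower and 3 higher by edgeR's quasi-likelihood test and Benjamini-Hochberg adjustment, against 51.6% of 11938 coding genes called (21.5% higher and 30.2% lower). The median log2 ratio over chains was −1.25, or −1.06 with the chain at 3 or fewer disomes set at its bound, against −0.16 over coding genes. Library preparation and fragment size differ between the assays and cannot be told apart from ribosome behaviour here.

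Type I and III fibre chains had the lowest ratios. Col1a1 had 43.6, 37.9 and 29.8 CPM in Ribo-seq and 5.11, 2.01 and 2.62 CPM in disome-seq, a log2 ratio of −3.45 (SE 0.28, adjusted p = 5.49e-08). Col3a1 had 43.0, 35.3 and 26.8 CPM against 5.79, 5.36 and 3.49, a log2 ratio of −2.76. Col1a2 had 58.2, 51.9 and 42.8 CPM against 8.17, 10.7 and 10.5, a log2 ratio of −2.40. Both were called, and no disome library of these 3 chains reached the Ribo-seq range. The windows of Col1a1 and Col3a1 shown above held 11 and 9 proline codons. Those of Col4a3, Col27a1 and Col16a1 held 11, 10 and 10, and the log2 ratios of these chains were above 0. Across the 9 chains with at least 10 counts in every library, the log2 ratio and the proline content had a Spearman correlation of 0.25, a description over few chains that share their libraries.

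Col6a1 had 19.9, 16.3 and 12.3 CPM against 3.06, 3.35 and 3.49. The type VI chains Col6a1 and Col6a3, the fibril-associated Col14a1 and the multiplexin Col15a1 had called log2 ratios of −2.32, −2.10, −2.19 and −1.98. Col6a5 had 132, 28 and 23 RPFs and 1, 2 and 1 disomes, which placed it at least 1.77-fold lower in disome-seq. Within type IV the pairs differed in value: Col4a1 and Col4a2 had called log2 ratios of −1.73 and −1.67 and Col4a5 one of −1.25, whereas Col4a3 and Col4a4 were not called. Col4a3 had 86.6, 85.5 and 64.3 CPM in Ribo-seq and 103, 119 and 61.9 in disome-seq, a log2 ratio of 0.30 (adjusted p = 0.192), and Col4a4 stood at −0.43 (adjusted p = 0.0619). With same-numbered libraries paired, 21 chains were called, Col4a4 and Col5a2 lower among them.

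Col27a1 was far above all other chains in this ratio. It had 53, 31 and 25 RPFs in the 3 WT Ribo-seq libraries and 66, 72 and 47 reads in the much shallower disome libraries, or 1.91, 2.04 and 1.79 CPM against 22.5, 24.1 and 41.0. The log2 ratio was 3.83 (SE 0.23, adjusted p = 2.48e-09), and the plain CPM ratio stood at percentile 99.6 among coding genes. Col7a1 had 1.41, 1.25 and 0.501 CPM against 3.74, 3.35 and 1.74, a log2 ratio of 1.53 (adjusted p = 0.00885). Col16a1 had 4.36, 4.40 and 3.29 CPM against 7.49, 7.04 and 5.23, a log2 ratio of 0.76 (adjusted p = 0.021). All 3 chains had groups that did not overlap, but Col27a1 was the one chain still called higher when WT disome replicate 1 or replicate 2 was left out.

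**Figure D3:**
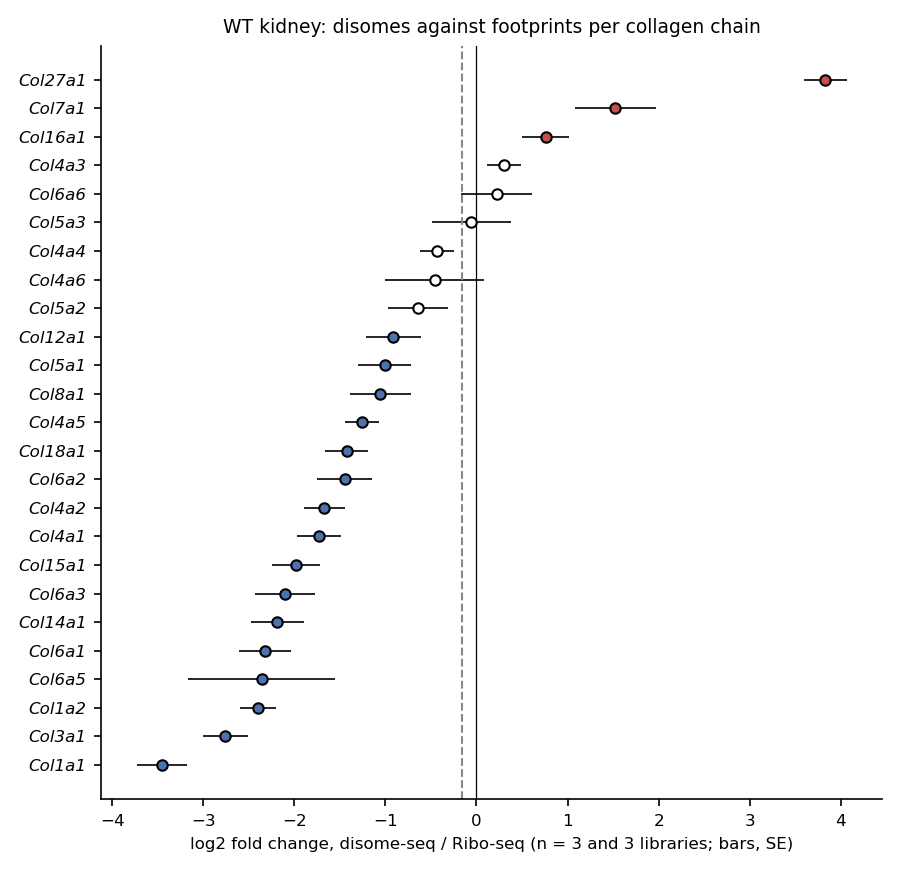
Log2 ratio of disome-seq to Ribo-seq level (± SE) in WT kidney for the 25 chains tested, sorted; filled points passed the adjusted threshold of 0.05 (red higher, blue lower) and the dashed line is the median of all coding genes, −0.16. Col27a1 stands alone at 3.83 and Col1a1 is lowest at −3.45.

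Col27a1 also had few RPFs for its RNA. The WT kidney RNA-seq libraries held 1742, 2363 and 2138 Col27a1 reads, and its ratio of Ribo-seq to RNA-seq CPM was 0.0650, at percentile 0.297 among coding genes. In WT brain that ratio was 0.146, at percentile 1.27. Over all chains the median log2 ratio of Ribo-seq to RNA-seq was 1.35 in kidney (37 chains) against 0.93 for coding genes, and 0.67 in brain (44 chains) against 1.02. With at least 10 counts in every library the brain values were 0.91 (28 chains) and 1.03.

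In brain, loss of Rpl41 gave no called chain in either assay. In brain RNA-seq 0 of 44 chains were called by edgeR's quasi-likelihood test and Benjamini-Hochberg adjustment and 0 by DESeq2, while 11 had an unadjusted p under 0.05 (1 higher, 10 lower), against 0.00639% of 15640 coding genes called. The values leaned lower: 36 of 44 chains were negative, all 11 fibrillar and all 6 type IV chains among them, with a median of −0.27 against 0.10 over coding genes. The groups did not overlap in 2 chains with Rpl41 KO higher, Col9a1 and Col26a1, and 10 with Rpl41 KO lower, against 10.3% and 3.27% of coding genes.

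Col5a1, a chain that starts the assembly of fibres, had brain RNA-seq levels of 7.94, 5.88 and 8.42 CPM in WT and 4.55, 4.32 and 4.47 in Rpl41 KO, a log2 difference of −0.74 (SE 0.16, adjusted p = 0.898). Col7a1 had 2.85, 1.71 and 2.59 CPM against 1.17, 1.02 and 1.14, a log2 difference of −1.10 (SE 0.23, adjusted p = 0.898). Col5a2 stood at −0.76 and Col4a6 at −0.90. Every Rpl41 KO library of these 4 chains lay below every WT library, and the values of WT replicate 2 lay nearest to them. The remaining chains with no overlap and Rpl41 KO lower were Col6a5, Col20a1, Col1a1, Col27a1, Col5a3 and Col18a1.

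Among the main chains of brain RNA-seq, Col1a1 had 4.24, 4.10 and 3.88 CPM against 3.74, 2.80 and 3.59. Col1a2 had 8.17, 7.41 and 9.61 CPM against 7.11, 8.49 and 8.92. Col3a1 had 1.07, 0.933 and 1.16 CPM against 0.773, 0.943 and 1.06. The groups of Col1a1 did not overlap and those of its partner Col1a2 did. Col4a1 had 12.2, 8.70 and 11.5 CPM against 9.01, 7.38 and 9.61. Col4a2 had 16.6, 10.2 and 16.2 CPM against 11.3, 9.19 and 12.2. Col4a5 had 1.38, 1.12 and 1.86 CPM against 0.924, 0.892 and 1.18. In these basement membrane chains WT replicate 2 lay among the Rpl41 KO libraries. Col6a1 had 19.7, 12.9 and 19.1 CPM against 12.1, 13.9 and 13.7. Col6a2 had 4.59, 3.95 and 4.21 CPM against 3.63, 4.65 and 4.53. Col6a3 had 0.936, 0.742 and 1.38 CPM against 1.15, 0.892 and 0.734. Col4a3 and Col4a4 were scarce, with 0.330, 0.223 and 0.426 CPM against 0.235, 0.306 and 0.316 for Col4a3 and 0.539, 0.445 and 0.395 CPM against 0.417, 0.204 and 0.266 for Col4a4. The groups overlapped for both. Col15a1 had 2.98, 2.47 and 2.89 CPM against 2.20, 2.14 and 2.57. Col18a1 had 5.21, 5.19 and 6.57 CPM against 5.13, 2.74 and 4.70, without overlap. Of the further separated chains, Col5a2 had 1.44, 1.04 and 1.47 CPM against 0.848, 0.701 and 0.785. Col4a6 had 0.605, 0.530 and 0.629 CPM against 0.379, 0.306 and 0.253. Col5a3 had 1.99, 1.59 and 1.73 CPM against 1.09, 1.06 and 1.34. The chains with Rpl41 KO higher were Col26a1 with 2.12, 1.85 and 1.96 CPM against 2.36, 3.11 and 2.67 and Col9a1 with 0.264, 0.297 and 0.284 CPM against 0.311, 0.370 and 0.354.

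Vascular markers also had negative values in brain RNA-seq. Pericyte and smooth muscle markers summed to 38.3 to 53.7 CPM in WT and 34.5 to 36.5 in Rpl41 KO (0 of 5 positive, median log2 difference −0.95), and endothelial markers to 12.2 to 16.8 and 7.98 to 12.8 (0 of 5 positive, median −0.61). Fibroblast, glial and macrophage markers did not fall: fibroblast markers summed to 32.6 to 39.7 CPM in WT and 37.5 to 43.1 in Rpl41 KO. Of the fibroblast markers 3 of 4 tested were positive (median 0.10), and glial and macrophage markers were positive in 4 of 4 each. Podocyte markers, 15.6 to 21.3 CPM in WT and 11.4 to 17.1 in Rpl41 KO, leaned lower (1 of 4 tested positive, median −0.40). Lrp2, the 1 epithelial marker tested, had −0.30. None of these markers was called, and their part in the collagen values was not tested. No defining marker of the vascular, fibroblast, glial and macrophage lists was at 0, while Wt1 (podocyte) and Umod (epithelial) had 3 or fewer reads. The summed RNA-seq level of all 44 chains was 160, 118 and 162 CPM in WT and 117, 110 and 127 in Rpl41 KO, a ratio of 0.804 (exact two-sided permutation test, p = 0.2, with overlap).

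In brain Ribo-seq 0 of 37 chains were called by edgeR's quasi-likelihood test, against 0.0348% of 14378 coding genes, and 0 by DESeq2. Before adjustment, 6 chains and 2085 coding genes had an edgeR p under 0.05. The chains' median was −0.10 against −0.03 over coding genes. The groups did not overlap in 3 chains with Rpl41 KO higher (Col18a1, Col4a6 and Col25a1) and 3 with Rpl41 KO lower (Col11a1, Col5a1 and Col8a2), against 9.88% and 9.74% of coding genes.

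Col25a1 had Ribo-seq levels of 15.2, 10.8 and 15.7 CPM in WT brain and 17.7, 20.8 and 19.6 in Rpl41 KO brain, a log2 fold change of 0.45 (adjusted p = 0.255). Col11a1, a minor chain of cartilage-type fibres, had 2.46, 8.71 and 2.86 CPM against 1.98, 2.03 and 1.68, a log2 fold change of −1.14 (adjusted p = 0.284), with WT replicate 2 far above the rest. The 6 chains that rose in kidney had brain Ribo-seq log2 fold changes from −0.10 for Col15a1 to 0.07 for Col6a3.

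The main chains overlapped in brain Ribo-seq apart from Col18a1, which had 9.49, 10.1 and 12.4 CPM against 14.0, 13.4 and 12.4, with the highest WT and the lowest Rpl41 KO library nearly equal. Col1a1 had 26.9, 44.7 and 70.8 CPM against 43.7, 26.1 and 31.1. Col1a2 had 28.6, 36.1 and 54.7 CPM against 41.9, 30.1 and 32.6. Col3a1 had 3.16, 3.76 and 6.43 CPM against 4.02, 3.65 and 3.96. WT replicate 3 was the highest library in these 3 fibrillar chains. Col6a3 had 1.70, 2.90 and 2.41 CPM against 2.15, 2.48 and 2.42 and Col4a3 had 0.378, 0.108 and 0.670 CPM against 0.792, 0.362 and 0.652. Col4a1 had 14.5, 7.204 and 12.2 CPM against 13.0, 10.8 and 12.3. Col4a2 had 16.6, 9.25 and 12.3 CPM against 13.6, 12.4 and 11.4. Col4a5 had 2.97, 2.04 and 4.33 CPM against 3.51, 3.73 and 3.54. Among these basement membrane chains WT replicate 2 was the lowest library. Col6a1 had 9.87, 6.77 and 8.22 CPM against 8.03, 8.54 and 8.89. Col6a2 had 7.08, 7.74 and 8.62 CPM against 7.41, 6.85 and 6.14. Col15a1 had 3.49, 2.47 and 3.39 CPM against 2.89, 3.28 and 2.75. The groups overlapped in all of these. Col4a6 had 0.944, 0.645 and 0.938 CPM against 1.08, 1.59 and 1.40. Col5a1 had 5.48, 4.62 and 4.38 CPM against 4.24, 2.81 and 3.58. Col8a2, a network-forming chain of the vessel and corneal lining, had 2.88, 4.09 and 2.90 CPM against 2.43, 2.25 and 2.33.

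TE in brain, which shares the libraries of both brain comparisons, had 0 of 44 chains called by edgeR's quasi-likelihood test and 0 by DESeq2, with 0.0% of coding genes called. An unadjusted edgeR p under 0.05 was reached by Col4a6 (1.58), Col18a1 (0.77) and Col26a1 (−1.07), and by 881 of 16616 coding genes. The median log2 TE change was 0.20 against −0.09 over coding genes.

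**Figure D4:**
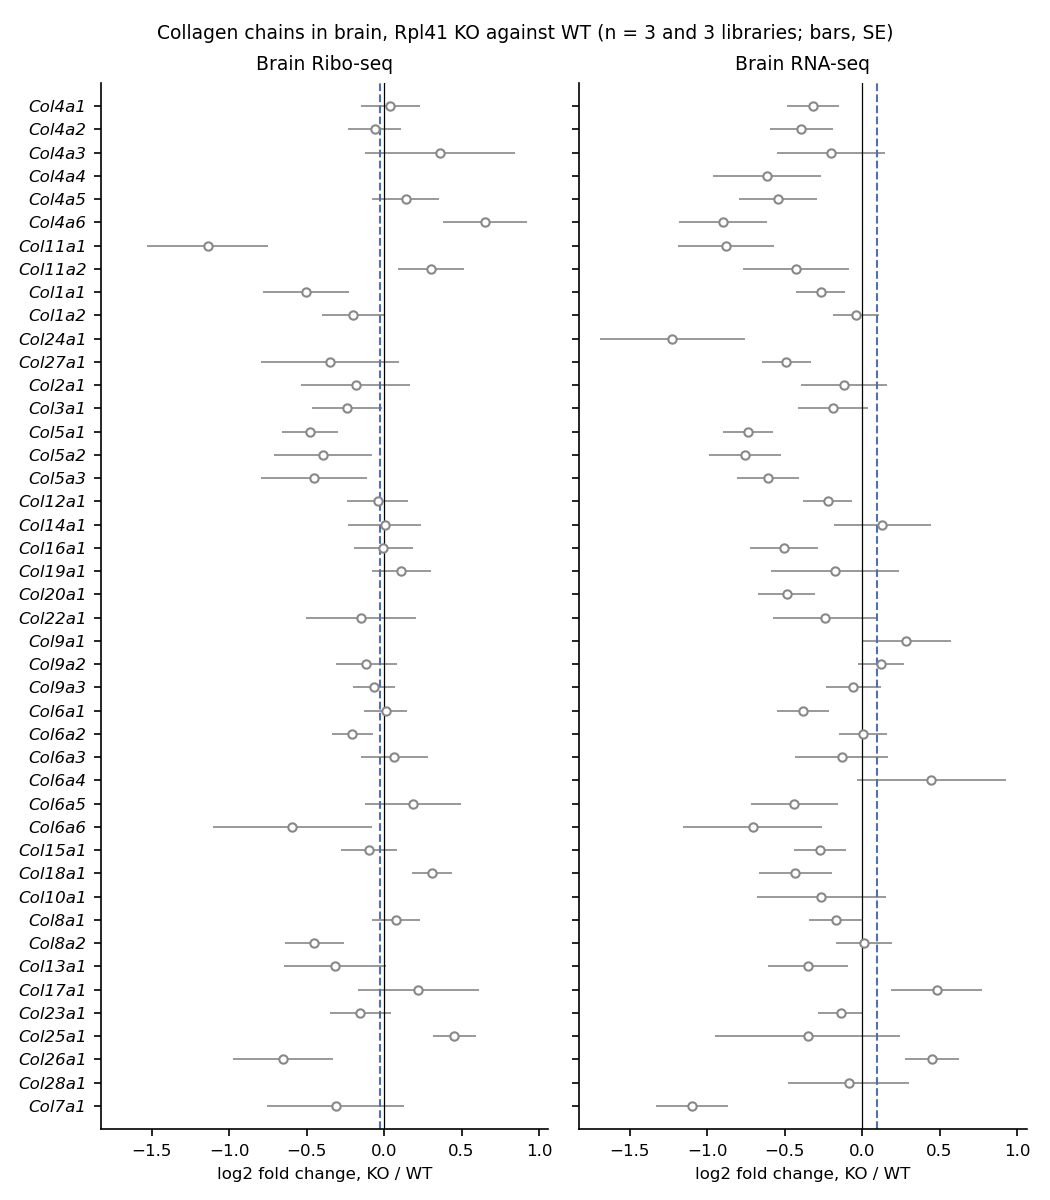
Log2 fold change of Rpl41 KO against WT (± SE) for each tested chain in brain Ribo-seq and RNA-seq, with the median of all coding genes dashed. No chain passed the adjusted threshold of 0.05, and in RNA-seq 36 of 44 points lie below 0.

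Whether the response differed between tissues was tested as an interaction of genotype and tissue on the same libraries. In Ribo-seq 0 of 39 chains were called by edgeR's quasi-likelihood test against 0.142% of coding genes, and DESeq2 called Col15a1. There 11 chains and 1460 of 15508 coding genes had an unadjusted edgeR p under 0.05. The log2 difference between the kidney and brain responses was 1.09 for Col15a1 (SE 0.27, adjusted p = 0.229), 0.96 for Col14a1, 0.83 for Col6a3 and 0.79 for Col16a1. In RNA-seq 0 of 43 chains were called by edgeR, against 0.0% of coding genes, and 0 by DESeq2. There 4 chains and 1284 of 16325 coding genes had an unadjusted edgeR p under 0.05. Col27a1 had 1.58 (adjusted p = 0.563) and Col7a1 had 1.82 (adjusted p = 0.585). Without Rpl41 KO kidney RNA-seq replicates 2 and 3 these were 0.74 and 1.04, and the kidney change of Col7a1 went from 0.78 to −0.07. Chains thus passed the threshold in kidney Ribo-seq, while the difference between tissues did not.

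Between WT tissues the chains differed widely. In RNA-seq 16 of 43 chains were higher in kidney and 16 higher in brain, against 73.0% of 15914 coding genes called (38.3% and 34.8%). In Ribo-seq 21 of 36 were higher in kidney and 7 in brain, against 75.6% of 14841 coding genes (37.5% and 38.1%), with a chain median of 0.90 against 0.01. Both used edgeR's quasi-likelihood test and Benjamini-Hochberg adjustment.

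Col4a3 and Col4a4 were almost absent from brain. Col4a3 had RNA-seq levels of 0.314, 0.212 and 0.394 CPM in WT brain and 62.6, 58.7 and 66.0 in WT kidney, a log2 fold change of 7.66 (SE 0.25), and 7.56 in Ribo-seq. Col4a4 stood at 7.59 in RNA-seq and 7.54 in Ribo-seq, with no overlap in either assay. Col14a1 followed with 5.63 and 5.08, and Col4a1 had 2.93 and 3.66. Col3a1 had 4.42 in RNA-seq and 3.07 in Ribo-seq.

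Of the further kidney-leading chains, Col14a1 had 0.314, 0.343 and 0.216 CPM against 11.9, 15.8 and 15.7 in RNA-seq with brain first, Col3a1 had 1.01, 0.887 and 1.07 CPM against 17.2, 25.9 and 20.5. Col6a6 had 0.241, 0.141 and 0.347 CPM against 3.44, 9.41 and 1.58. Col6a6, a type VI chain, varied most of these 3 between its kidney libraries. In Ribo-seq Col4a1 had 14.2, 6.82 and 12.3 CPM against 158, 176 and 97.6. Col6a3 had 1.66, 2.75 and 2.43 CPM against 32.6, 24.7 and 15.4. Col14a1 had 1.06, 1.53 and 1.62 CPM against 62.0, 46.8 and 31.0. No kidney library of these chains fell within the brain range. Col4a4 had 0.512, 0.423 and 0.365 CPM against 88.3, 88.4 and 73.8 in RNA-seq and Col4a5 had 1.31, 1.07 and 1.71 CPM against 13.8, 16.9 and 13.0.

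Chains typical of cartilage and neurons led in brain. Col11a1 had 554, 247 and 572 RNA-seq reads in WT brain and 1, 2 and 0 in WT kidney, at least 67.0-fold lower in kidney. Col9a2 was at least 58.0-fold lower in kidney in RNA-seq and at least 17.2-fold lower in Ribo-seq. Col25a1 had 14.9, 10.2 and 15.8 CPM in brain Ribo-seq and 0.192, 0.353 and 0.155 in kidney, a log2 fold change of −5.89. Col9a3 was lower in kidney by −5.51 in RNA-seq and −4.54 in Ribo-seq on the log2 scale. These chains belong to cartilage-type fibres and to neuronal membranes. Col25a1, Col2a1, Col17a1, Col9a1 and Col28a1 were at least 12.8-fold, 10.7-fold, 5.64-fold, 3.90-fold and 3.82-fold lower in kidney RNA-seq, where each had at most 3 reads per library. In Ribo-seq, with brain first, Col9a3 had 9.27, 7.54 and 11.6 CPM against 0.615, 0.141 and 0.309 and Col11a2 had 5.58, 2.34 and 5.84 CPM against 0.346, 0.777 and 0.232. Col19a1, a fibril-associated chain of interneurons, had 5.12, 2.55 and 4.76 CPM against 0.730, 0.494 and 0.618. Col8a2 had 2.81, 3.87 and 2.92 CPM against 0.884, 0.636 and 0.541. In all 4 of these chains kidney and brain did not overlap.

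**Figure D5:**
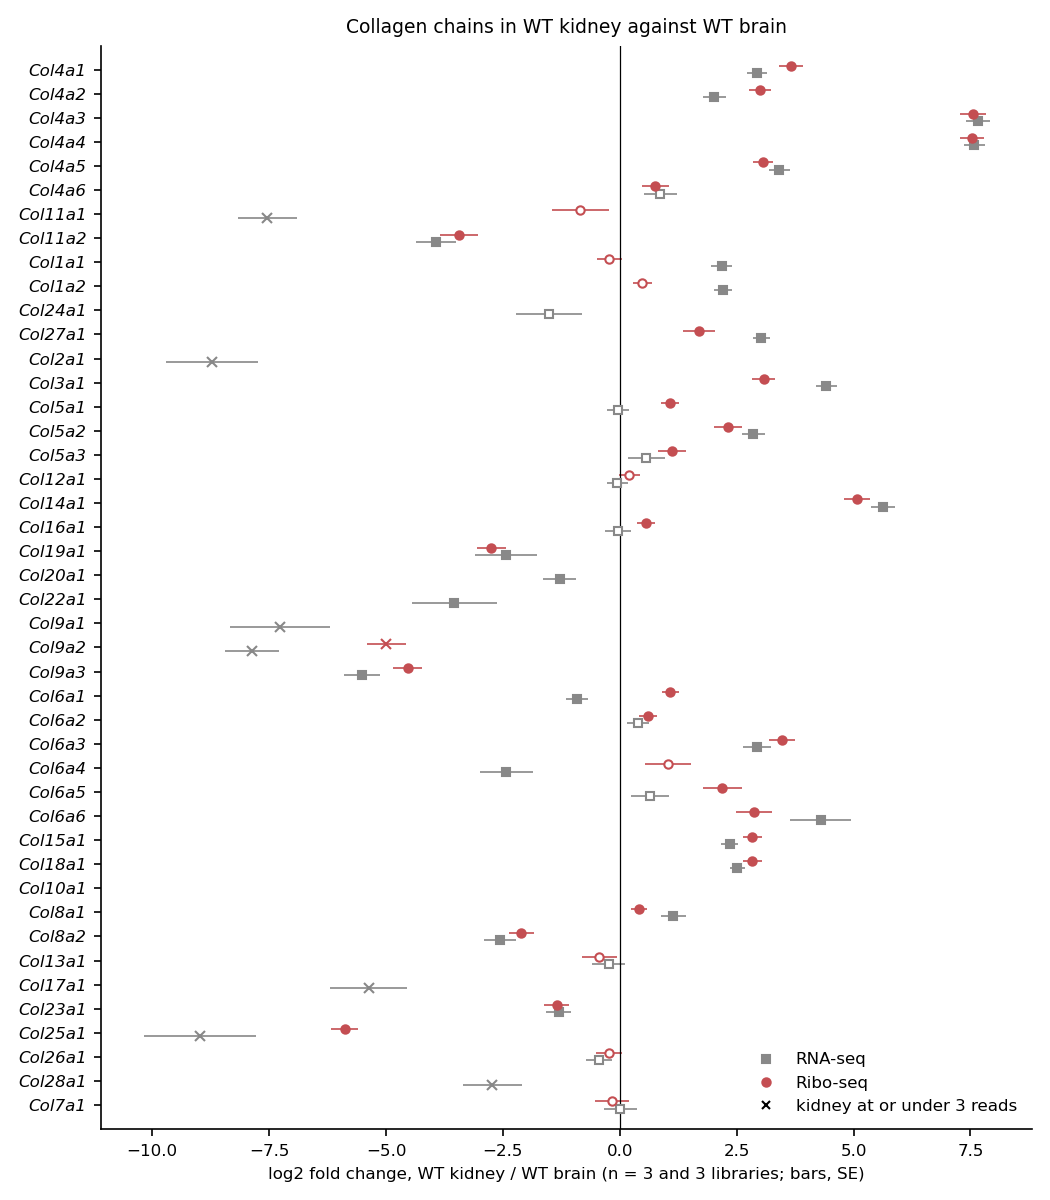
Log2 fold change of WT kidney against WT brain for each chain, with RNA-seq as squares and Ribo-seq as circles; filled points passed the adjusted threshold of 0.05 and crosses mark chains whose kidney libraries all held 3 or fewer reads. Col4a3 and Col4a4 lie above 7 in both assays.

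Type I fibre chains differed between tissues in RNA-seq but not in the same way in Ribo-seq. Col1a1 had RNA-seq levels of 4.03, 3.90 and 3.59 CPM in brain and 11.9, 21.0 and 19.2 in kidney, a log2 fold change of 2.18, while its Ribo-seq levels were 26.2, 42.4 and 71.3 CPM in brain and 46.4, 40.8 and 32.2 in kidney, a log2 fold change of −0.23 that was not called. Its Ribo-seq to RNA-seq ratio was 15.8 in brain, at percentile 95.3 of coding genes, and 3.40 in kidney.

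TE between tissues, tested on the same libraries by edgeR's quasi-likelihood test, was higher in kidney for 7 of 42 chains and lower for 4, against 21.2% of 16458 coding genes (12.2% and 8.97%). The 4 lower chains were Col1a1 (−2.24, SE 0.41, adjusted p = 0.00099), Col1a2 (−1.57), Col3a1 (−1.17) and Col27a1 (−1.17). Higher in kidney were Col6a1 (2.17, SE 0.34, adjusted p = 0.000218), Col5a1 (1.27), Col4a2 (1.15) and Col6a4 (3.55). Col6a4 rests on low counts. It had 19, 8 and 9 RPFs in WT kidney and too few kidney RNA-seq reads to be tested there between Rpl41 KO and WT. The other called chains, Col11a1, Col2a1 and Col17a1, had 3 or fewer kidney RNA-seq reads in every library, so their fitted values are not given. With same-numbered libraries of both assays paired, 12 chains were called, Col4a1 being added. Col1a1, Col1a2, Col6a1 and Col6a4 were called in all 12 fits that left out a single library, and Col27a1, Col3a1 and Col4a2 were not.

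Of 36 genes that make, modify and export collagen, 34 were tested in kidney Ribo-seq, and 5 rose and 0 fell in Rpl41 KO by edgeR's quasi-likelihood test, against 5.95% of coding genes called higher and 3.93% lower. Their median log2 fold change was 0.33 against −0.02 over coding genes, with 30 positive. Sec23a and Sec24d, parts of the coat of export vesicles, had log2 fold changes of 0.43 and 0.56, and Mia3, which loads collagen into those vesicles, had 0.48. Sec23a levels were 18.6, 19.0 and 19.1 CPM in WT and 25.6, 25.4 and 25.8 in Rpl41 KO, with no overlap. P3h2, a prolyl 3-hydroxylase, and Colgalt2, which adds galactose to hydroxylysine, had 0.45 and 0.59.

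Of 20 collagen receptor and turnover genes 15 were tested, and 4 rose and 0 fell against the same 5.95% and 3.93%, with a median of 0.40 against −0.02. Itga1 and Itgb1, which together form a collagen-binding integrin, had log2 fold changes of 0.60 and 0.40, Mrc2, an endocytic collagen receptor, had 0.72 and the collagen-degrading protease Ctsk had 0.75. None of either list was called by edgeR in kidney RNA-seq, disome-seq or TE, nor in brain RNA-seq or Ribo-seq. The unadjusted p was under 0.05 for 2 biosynthesis and 1 receptor and turnover genes in kidney RNA-seq, and for 7 and 5 in kidney TE. Over coding genes this held for 1960 of 13810 in kidney RNA-seq and 2705 of 15347 in kidney TE. DESeq2 was fitted over all transcripts, but its values for these lists were not read.

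Col4a3bp, which the symbol pattern also takes, had kidney Ribo-seq levels of 19.6, 16.6 and 20.5 CPM in WT and 26.0, 24.7 and 25.2 in Rpl41 KO, a log2 fold change of 0.42 (SE 0.11, adjusted p = 0.0358 by edgeR's quasi-likelihood test). The groups did not overlap. Its values in the other Rpl41 KO comparisons, −0.48 in kidney RNA-seq, 0.59 in disome-seq, −0.25 in brain RNA-seq and 0.34 in brain Ribo-seq, were not called.

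Some chain values rest on counts that transcripts or genes share. The transcript shown had under 90% of the RNA-seq reads of its gene's leading coding transcript in Col11a2 (69.1%), Col18a1 (58.1%), Col6a3 (49.1%) and Col25a1 (7.82%), so the RNA-seq values of these chains, and ratios built on them, depend on the transcript chosen. Exons of other genes overlapped 6.58% of Col4a3 and 7.68% of Col9a3. The Col4a3bp transcript had 16.4% of the RNA-seq reads of its gene's leading coding transcript and 9.72% exon overlap, so its values carry both limits.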

How the data were processed

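Ribo-seq, disome-seq and RNA-seq libraries of mouse kidney and brain were analysed, 3 per group and 30 in all. Per the labels and the study's methods, fragments of 17–34 nt (Ribo-seq) and 50–80 nt (disome-seq) were isolated after RNase I digestion, and RNA-seq was poly(A)-selected and strand-specific. The authors trimmed reads with cutadapt, removed ribosomal RNA reads, aligned the rest with STAR to GRCm38 (mm10), allowed multimapping and counted with featureCounts. The deposited values are raw counts per transcript, so reads shared by isoforms count for each, and totals can exceed the number of reads. Of 142604 transcripts 141374 matched GENCODE M21. A table of human cells, with 28 columns, was not used.

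Each gene was represented by the coding transcript with the longest protein. Transcripts were filtered with filterByExpr, scaled by TMM and fitted over all transcripts with edgeR's quasi-likelihood test (edgeR 4.0.16, limma 3.58.1, R 4.3.3), p-values adjusted by the Benjamini-Hochberg method over every transcript tested, and calls made at 0.05. TE and response differences were interaction terms. Summed levels were compared by exact two-sided permutation tests, for which 3 against 3 libraries cannot go below 0.1. CPM values are TMM-scaled within each comparison and differ slightly between comparisons. Fold changes against groups with at most 3 reads in every library are lower bounds against 3 reads per library and cover counting error only. Tables were made with Python 3.11.15, pandas 2.3.3, numpy 2.4.6 and scipy 1.17.1, and figures with matplotlib 3.10.9. The fits of kidney RNA-seq, Ribo-seq and TE, of WT disome-seq against Ribo-seq and of WT RNA-seq between tissues were tested on simulated data. No minimum of recovered changes was required of the TE fit, and the other comparisons were not simulated.

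Alternatives were DESeq2 (1.42.0), library-size scaling, no filter beyond 1 count, at least 10 counts in every library, 1 transcript per gene, counts summed per gene, a replicate block and leaving out each library. Leaving out Rpl41 KO kidney RNA-seq replicates 2 and 3 together was added after the data were seen. Same-numbered WT and Rpl41 KO libraries deviated together in kidney disome-seq (correlations 0.117 to 0.210) but not in kidney Ribo-seq (−0.139 to 0.0416). The block changed no chain call between Rpl41 KO and WT in disome-seq. Same-numbered libraries of different assays deviated together in WT kidney (0.181 to 0.404), Rpl41 KO kidney (0.137 to 0.292) and WT brain (0.192 to 0.468), but not in Rpl41 KO brain (−0.0561 to 0.117). Replicates are separate samples in the labels. The sources used here do not tie their numbers to animals, so p-values measure the spread between these samples.

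Values per library were given by rule for chains called between Rpl41 KO and WT, for tested chains among 13 main ones (Col1a1, Col1a2, Col3a1, Col4a1 to Col4a5, Col6a1 to Col6a3, Col15a1 and Col18a1), and for up to 5 chains each way with the largest change among those whose groups did not overlap (up to 6 between tissues). The pathway genes were 36 for biosynthesis and 20 for receptors and turnover. The chains, lists and marker genes were chosen with earlier results of these data known. Direction was checked under each scaling: without TMM the median of all coding genes shifted by over 0.1 on the log2 scale in kidney RNA-seq (−0.06 against 0.10), WT RNA-seq between tissues (−0.15 against 0.10) and WT disome-seq (−0.27 against −0.16), and under DESeq2 in WT TE (−0.27 against −0.02), so chain values are read relative to that median.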

Additional observations from a re-analysis of the deposited data

How the results depend on the processing

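The count of called collagen chains stayed within 1.5 times its reported value in 208 repeats and moved further in 17. In most comparisons the reported count was 0, so many of the 208 were 0 staying at 0 and do not measure stability of calls. No called chain of kidney Ribo-seq changed direction. The chain median relative to that of all coding genes, which carries no test, changed sign in 4 comparisons. In WT RNA-seq between tissues it went from −0.14 to 0.84 with at least 10 counts in every library, and to about 0 without WT brain replicate 1 or WT kidney replicate 1 (0.0048 and 0.0024). In brain Ribo-seq it went from −0.07 to 0.06 without WT replicate 3, in the RNA-seq response from 0.08 to −0.02 without WT kidney replicate 1 and to −0.01 without Rpl41 KO brain replicate 2, and for disomes relative to Ribo-seq from −0.23 to 0.0030 without Rpl41 KO disome replicate 1. In kidney Ribo-seq the count of called chains was 17 with no filter beyond 1 count and 4 with 1 transcript per gene, against 7. It ran from 1 to 8 with a single library left out. In kidney RNA-seq leaving out a library gave from 0 to 4, in kidney disome-seq from 0 to 1, in the RNA-seq response between tissues from 0 to 2, in kidney TE from 0 to 8 and in TE between WT tissues from 8 to 14. The 4 in kidney RNA-seq and the 8 in kidney TE came without Rpl41 KO RNA-seq replicate 1, which leaves replicates 2 and 3. DESeq2 gave 4 chains in kidney TE and 1 in the Ribo-seq response between tissues, and its shares over coding genes are not given here. With no filter, brain Ribo-seq gave 2 (Col11a1 and Col25a1) and the Ribo-seq response 2 (Col11a1 and Col15a1). With at least 10 counts in every library, fewer chains could be tested and the counts were 8 for WT disome-seq against Ribo-seq, 21 for WT RNA-seq, 14 for WT Ribo-seq and 5 for WT TE. Pairing the assays by replicate number gave 1 chain, Col27a1, for disomes relative to Ribo-seq. The replicate block gave 5 chains in kidney Ribo-seq, without Col6a1 and Col27a1, 21 in WT disome-seq, 32 in WT RNA-seq, 29 in WT Ribo-seq and 12 in WT TE, and 0 chains, unchanged, in the other comparisons. Where no construction of the alternative shows it, the cause of a shift was not tested. With 319 to 1313 disome counts over all chains per library, 16 of the 44 chains could be tested between Rpl41 KO and WT in disome-seq. Changes in single chains could be missed at this depth, and no detection limit was worked out.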

Other observations

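Col11a1 varied widely between the WT Ribo-seq libraries of both tissues. Ribo-seq counts were 11, 70 and 28 in the 3 WT kidney libraries, whose depths were 25882664, 14861418 and 13573525 counts. Replicates 2 and 3 thus both stood above replicate 1 at lower depth. The WT kidney RNA-seq libraries held 1, 2 and 0 reads, and the brain Ribo-seq level was highest in WT replicate 2 at 8.71 CPM. The WT disome libraries held 0 reads of this chain. With no filter on low counts Col11a1 was called in kidney and brain Ribo-seq.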
